A study of Mus musculus with 8 samples.

Results

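Proteins made for secretion are threaded into the endoplasmic reticulum (ER) as they are translated, and 32 genes of this entry machinery were followed here across islet cell types and after partial pancreatectomy. All 32, listed by their known function, were among the 24421 genes counted in each of the 8 deposited tables. The list was chosen with earlier results of these data known. The genes were divided by role into signal recognition (7 genes), the Sec61 channel and its partners (7), the translocon-associated protein complex TRAP (4), signal peptidase (5) and oligosaccharyltransferase (9). Each was read singly and as a sum over the genes.

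The signal recognition particle (SRP) binds the signal peptide of a growing chain and brings the ribosome to its receptor on the ER membrane. The chain then passes through the Sec61 channel, assisted by TRAP and other partners. Signal peptidase cuts the signal peptide off, and oligosaccharyltransferase attaches a preassembled glycan to asparagines of the chain. Insulin, glucagon, somatostatin and pancreatic polypeptide all enter the ER as precursors with a signal peptide, and preproinsulin is among the most heavily translated messages of the beta cell.

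Islet cells came from male C57BL/6J mice of 8 weeks. The 4 control samples were from mice without an operation, and the 4 PPTx samples were from mice whose pancreas was reduced by 50% partial pancreatectomy (PPTx) 2 days before islet isolation. According to the methods, a sample held the islets of a single mouse or of a few pooled mice, and the splenic side of the pancreas was the part removed. The operation and the region of the pancreas that was left to sample therefore cannot be told apart, and no sham operation was part of the comparison. Droplet single-cell libraries were counted in unique molecular identifiers (UMIs).

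Of 1240 cells 1232 passed the study's limits on detected genes and on UMIs, with 227439 to 1580152 UMIs and 65 to 294 cells a sample. Cells were assigned by the hormone that made up at least 60% of their hormone UMIs, which gave 955 beta-like, 132 PP-like, 115 alpha-like, 14 delta-like and 1 epsilon-like cell, while 15 had no leading hormone at that limit. Iapp, Ucn3, Slc2a2 and G6pc2 were at 48774, 530, 219 and 1998 CPM (UMIs per 1000000 UMIs of all genes) in beta-like cells and at no more than 4653, 12.2, 14.3 and 104 in PP-like or alpha-like cells. Mafa was at 0.313 CPM in beta-like cells. The alpha-cell genes Irx2, Gc and Slc7a2 were at 195, 491 and 436 CPM in alpha-like cells and at 0.782, 89.5 and 76.5 CPM in beta-like cells. Ins1 and Ins2 made up 0.952% of the UMIs of PP-like and 0.855% of those of alpha-like cells, against 58.2% in beta-like cells. The median was 6061 UMIs a cell in beta-like, 5206 in PP-like and 3973 in alpha-like cells. One library stood apart: Scrublet, a caller of doublets, marked 33 of the 65 cells of control replicate 1, the smallest library, and results were also computed without the marked cells.

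Unless stated otherwise, a level is the UMIs of a gene per 1000000 UMIs of genes other than the 7 hormone genes, summed over the cells of a class in a sample. UMIs count transcript ends and were not scaled by length, so levels are compared between cell classes and samples and not between genes. Together the 32 genes had 59825 UMIs in the kept cells. Sec61g and Tusc3 were nearly undetected, with 29 and 43 UMIs in all beta-like cells, and did not pass the filter on low counts in any comparison. The other 30 had from 372 (Stt3b) to 5198 (Ssr4) UMIs in beta-like cells. Against the RefSeq positions on GRCm38.p6, 11 of the 32 overlap another annotated gene, which is protein-coding for Srpr, Serp1, Spcs1, Spcs2, Rpn2 and Krtcap2. The strand setting of the counting is not given in the sources used here, so reads of such partners cannot be told apart.

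The summed level of the ER entry genes was lower in PP-like and in alpha-like cells than in beta-like cells of the same sample. The summed level in beta-like cells was 15045, 15686, 18355 and 18010 in the control samples and 21172, 22192, 20633 and 20753 in the PPTx samples. In PP-like cells it was 14404, 14094 and 16013 in control replicates 2 to 4 and 14249, 14050, 12625 and 14923 after PPTx. In alpha-like cells it was 10239, 7668, 9904 and 9813 in control, and 11896 and 12064 in PPTx replicates 2 and 3, the samples with at least 5 such cells. Scrublet marked all 6 alpha-like cells of control replicate 1. The PP-like sum was below the beta-like sum of the same sample in 7 of 7 samples, at a mean ratio of 0.745 ± 0.121 (SD, n = 7). The ratio ran from 0.612 (PPTx replicate 3) to 0.918 (control replicate 2), and was lower in each PPTx sample than in each control sample. The alpha-like sum was below it in 6 of 6, at 0.562 ± 0.0654 (SD, n = 6). On the scale of all UMIs (CPM), where the larger hormone share of beta-like cells enters the total, the log2 ratio of alpha-like over beta-like cells was -0.50 instead of -0.84. On that scale the sums were 6034 to 10748 in beta-like, 4620 to 6026 in PP-like and 4120 to 6109 in alpha-like cells of samples with at least 5, so that alpha-like cells overlapped with PP-like and with beta-like cells, while each alpha-like sum was below the beta-like sum of its own sample. The difference between PP-like and alpha-like cells was not tested on either scale. The 14 delta-like cells held 254 UMIs of the members, a summed level of 10080 (95% Poisson interval 8879 to 11399, counting error only). No sample had 5 delta-like cells, so no test was made for them.

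**Figure D1:**
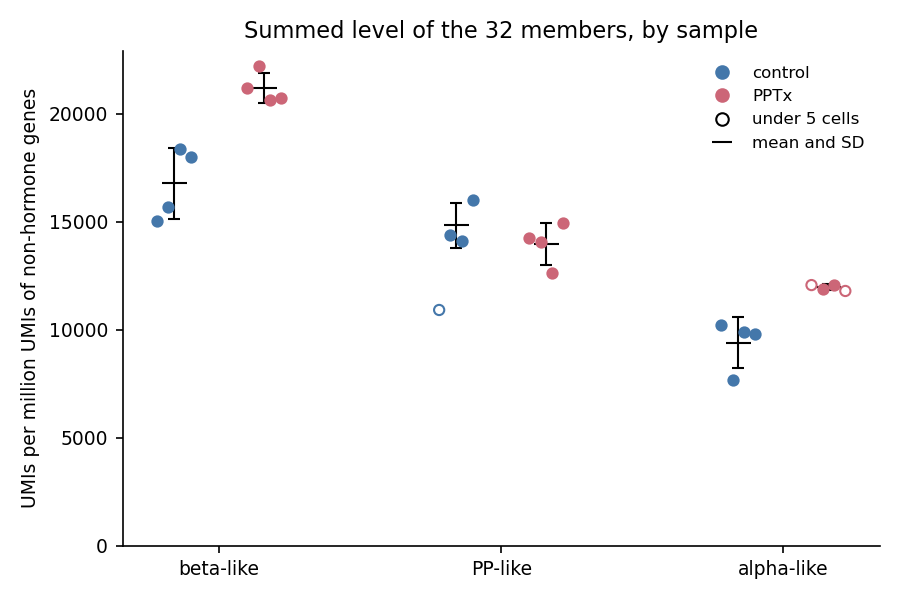
Summed level of the 32 ER entry genes in each sample, in UMIs per 1000000 UMIs of non-hormone genes (y axis from 0), for beta-like, PP-like and alpha-like cells (x axis). Each point is a sample, blue for control and red for PPTx, hollow where the class had under 5 cells, and bars give the mean and SD of the filled points. Beta-like cells sit at 15045 to 22192, PP-like cells at 12625 to 16013 where filled, and alpha-like cells at 7668 to 12067.

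The members were then tested singly, with edgeR on sums per sample and class, the sample kept as a block. Between PP-like and beta-like cells, 26 members passed the filter on low counts, 17 were lower in PP-like cells at an adjusted p under 0.05 and 0 were higher. Of all 1402 genes tested, 23.0% were lower. The median log2 fold change was -0.46 over the 26 members and 0.02 over all genes. Between alpha-like and beta-like cells, 20 of the 26 members were lower and 0 were higher, where 23.3% of all genes were lower, and the medians were -0.85 and 0.02. All 26 members had a fitted change below 0 in both comparisons. For alpha-like cells a scaling without the TMM factors (the trimmed-mean correction of library sizes) put 5 of them above 0 (Srp68, Ssr2, Ssr4, Sec11a and Stt3a), none of which passed, and each other alternative put at most 2 members above 0. Both comparisons use the same beta-like sums. Srp19, Srpr, Srprb, Sec61g, Stt3b and Tusc3 did not pass the filter. That scaling put the median of all genes at 0.39 on the log2 scale for alpha-like cells, and 14 members were called under it, all of them lower.

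Serp1 and Sec11c had the lowest adjusted p among the members in both comparisons. Serp1 encodes a small protein that binds the Sec61 channel and is known to be induced by ER stress. Its level in beta-like cells was 1180, 1294, 1242 and 1260 in control and 1558, 1616, 1438 and 1549 after PPTx. In PP-like cells it was 946, 471 and 594 in control replicates 2 to 4 and 596, 495, 549 and 572 after PPTx. Every PP-like value was below every beta-like value. In alpha-like cells it ranged from 253 to 737 over the 6 samples with at least 5 cells. The log2 fold change was -1.45 ± 0.14 (SE; adjusted p = 2.51e-14, edgeR) in PP-like and -1.62 ± 0.17 (adjusted p = 4.42e-13) in alpha-like cells, lower in 7 of 7 and 6 of 6 samples.

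Sec11c encodes one of the alternative catalytic subunits of signal peptidase, and Sec11a the other. Sec11c was at 633 to 750 in the beta-like cells of control and 851 to 974 in those of PPTx samples. It was at 260 to 532 in PP-like and 116 to 506 in alpha-like cells of samples with at least 5 of these, with no overlap with the beta-like cells. Its log2 fold change was -1.37 ± 0.17 in PP-like and -1.77 ± 0.21 in alpha-like cells (SE; adjusted p = 5.59e-11 and 2.74e-11, edgeR). Sec11a passed the test in neither comparison, at -0.21 ± 0.21 and -0.30 ± 0.26. The accessory subunits Spcs1, Spcs2 and Spcs3 were all lower in both classes. Spcs3 was at -1.21 ± 0.17 and -1.40 ± 0.20, Spcs1 at -0.86 ± 0.15 and -1.43 ± 0.20, and Spcs2 at -0.62 ± 0.14 and -1.18 ± 0.18. Thus 4 of the 5 signal peptidase genes were lower in each class, and the summed level of this complex was 0.64 ± 0.203 (SD, n = 7) of that in beta-like cells for PP-like and 0.428 ± 0.0598 (SD, n = 6) for alpha-like cells. It was lower in 6 of 7 samples in PP-like cells, with a ratio of 1.06 in control replicate 2, and in 6 of 6 in alpha-like cells.

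Of the channel genes, Sec61a1, which encodes the pore, was lower by a log2 fold change of -0.83 ± 0.15 in PP-like and -1.22 ± 0.19 in alpha-like cells, and the small subunit gene Sec61b by -0.42 ± 0.13 and -0.83 ± 0.16. Tram1, whose product lines the path of the chain, was at -0.54 ± 0.13 and -1.31 ± 0.17. Sec62 and Sec63, which serve import after translation, passed only against alpha-like cells. Sec63 was at -0.38 ± 0.24 (adjusted p = 0.178) in PP-like cells and at -1.65 ± 0.34 (adjusted p = 3.56e-05) in alpha-like cells, where it had 18 UMIs in all. Sec62 was at -0.03 ± 0.17 (adjusted p = 0.904) and -0.60 ± 0.21 (adjusted p = 0.0171). The difference between the 2 class comparisons was not tested.

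The TRAP genes summed to 0.791 ± 0.107 (SD, n = 7) of the beta-like level in PP-like and 0.751 ± 0.109 (SD, n = 6) in alpha-like cells, and the oligosaccharyltransferase genes to 0.777 ± 0.129 and 0.615 ± 0.222. These sums were lower than in beta-like cells of the same sample throughout, except for oligosaccharyltransferase in the alpha-like cells of control replicate 1, at a ratio of 1.05. Scrublet marked all 6 of these alpha-like cells. All 4 TRAP genes were lower in PP-like cells, from -0.39 ± 0.14 for Ssr2 to -0.67 ± 0.18 for Ssr1. With cells thinned to 2000 UMIs, the calls of Ssr2 and Ssr3 in PP-like cells were lost, as was that of the oligosaccharyltransferase gene Krtcap2. In alpha-like cells Ssr1 and Ssr3 were lower, at -1.15 ± 0.23 and -0.79 ± 0.19. Ssr4 was at -0.33 ± 0.15 (adjusted p = 0.0531) and Ssr2 at -0.03 ± 0.16 (adjusted p = 0.898) there. Ssr2 was at 506 to 876 in beta-like and 259 to 1219 in alpha-like cells, so that the classes overlapped. Of the oligosaccharyltransferase genes, the structural subunit genes Rpn1, Rpn2, Ddost, Dad1 and Krtcap2 were lower in both classes. In PP-like cells their changes ran from -0.44 ± 0.15 (Ddost) to -0.93 ± 0.14 (Rpn2), and in alpha-like cells from -0.68 ± 0.18 (Krtcap2) to -1.28 ± 0.19 (Rpn1). Ostc, a subunit of the translocon-bound form, passed only in alpha-like cells, at -1.14 ± 0.18, against -0.28 ± 0.14 (adjusted p = 0.0832) in PP-like cells. Stt3a, a catalytic subunit, passed in neither, at -0.16 ± 0.22 and -0.06 ± 0.26.

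The signal recognition genes summed to 0.849 ± 0.16 (SD, n = 7) of the beta-like level in PP-like and 0.634 ± 0.076 (SD, n = 6) in alpha-like cells, lower in 6 of 7 and 6 of 6 samples. None of the 4 tested passed in PP-like cells, where the lowest adjusted p was 0.0813 (Srp72), and 2 passed in alpha-like cells, Srp14 at -0.74 ± 0.22 and Srp9 at -0.81 ± 0.30, which together form the Alu domain of SRP. Srp68 and Srp72, which form a heterodimer on the SRP RNA, passed in neither. Srp9 had 31 UMIs in all alpha-like cells, 19 of them in control replicate 3. The 2 in PPTx replicate 1, which had under 5 such cells, were not in the fit. The call of Srp9 was lost without control replicate 4, without PPTx replicate 2 and under 3 other settings. Ddost in PP-like cells was lower in 4 of 7 samples, and its call was lost without PPTx replicate 1 or 2. The calls of Ssr3 in PP-like cells without PPTx replicate 1, and of Srp14 without control replicate 3 and Sec62 without PPTx replicate 3 in alpha-like cells, were lost as well.

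**Figure D2:**
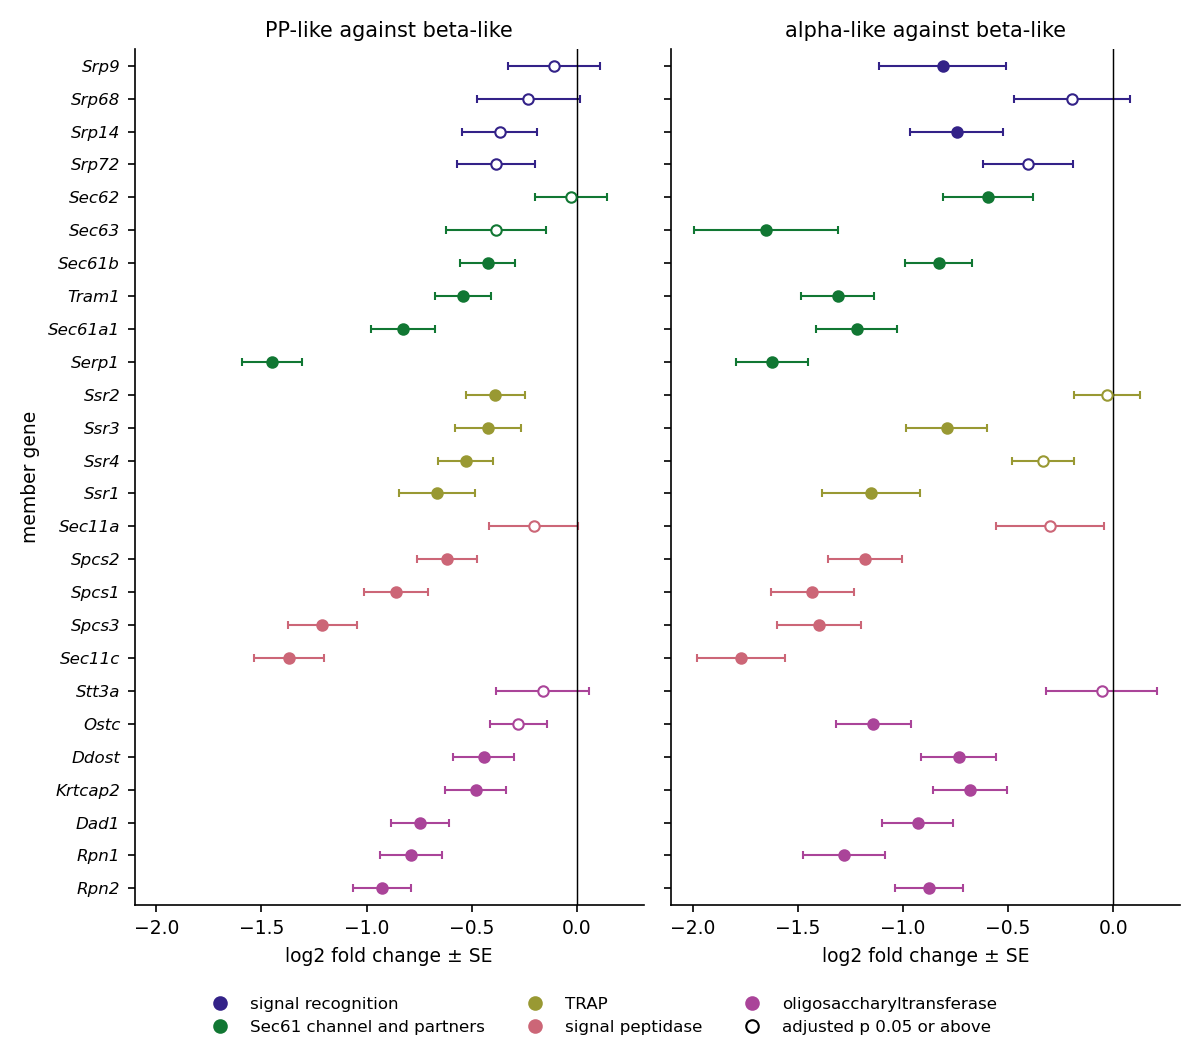
Log2 fold change ± SE (x axis) of each of the 26 tested members (y axis), PP-like against beta-like cells on the left and alpha-like against beta-like cells on the right, from edgeR. Colours mark the complexes, filled points have an adjusted p under 0.05, and values below 0 are lower than in beta-like cells. All points lie at or below -0.03, with Serp1, Sec11c and Spcs3 far to the left in both panels.

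Other genes of ER import and N-glycosylation were read in the same fits. Of 62 further genes of these pathways (the ER membrane complex, the glycan assembly enzymes and the calnexin cycle among them), 17 were tested, of which 11 were lower in PP-like and 12 in alpha-like cells, with 0 higher. In PP-like cells Gfpt1 and Emc10 were above 0, at 0.17 ± 0.13 and 0.19 ± 0.21, and did not pass, and Emc10 did not pass in alpha-like cells either. Uggt1, which senses misfolded glycoproteins, was at -1.52 ± 0.27 and -2.22 ± 0.35. Dnajc3 was at -1.31 ± 0.15 and -1.48 ± 0.18, and the lectin chaperone gene Calr at -1.30 ± 0.15 and -1.02 ± 0.17. Of 19 ER chaperone and unfolded protein response genes, 13 were tested and 8 and 10 were lower. Over all 1402 genes tested in these fits, 23.0% were lower in PP-like and 23.3% in alpha-like cells. Sdf2l1 was at -2.73 ± 0.24 and -2.30 ± 0.29, and Hspa5, which encodes the chaperone BiP, at -0.95 ± 0.14 and -1.10 ± 0.17. Medians of the first list were -0.72 and -0.75, and of the second -0.80 and -1.10.

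Promoter windows of RefSeq on GRCm38.p6 (250 bases before to 50 after a start) were matched for 23 of the 32 members, in 25 windows, and searched on both strands for the letters of ER stress elements, to which the factors ATF6 and XBP1 are known to bind. The classical element, CCAAT and CCACG with 9 bases between them, was in 0 of the 25 windows and in 0.119% of all 32851 windows. It was in the windows of Creld2, Pdia6, Hspa5 and Hsp90b1 among the 16 chaperone genes with a window. The second element, ATTGG and CCACG with 1 base between them, was in 1 member window, that of Krtcap2, and in 0.0365% of all. TGACGTG was in the window of Srpr and in 2.01% of all windows, and the shorter GACGTG, which it contains, in 6 of 25 (Dad1, Sec63, Serp1, Srp14, Srpr and Ssr1) and in 6.38% of all. CCACG alone, part of both elements, was in 17 of 25 and in 32.8%. Of the sequences shown, Serp1 has the largest difference of the 26 members tested in PP-like cells, Krtcap2 and Srpr hold the longer matches, and Creld2, which passed the test after PPTx, holds the classical element. Capitals mark every match on either strand, and each runs in the direction of its gene. Serp1 is at chr3:58525835-58526134 (minus strand), Krtcap2 at chr3:89246223-89246522 (plus), Srpr at chr9:35210953-35211252 (plus) and Creld2 at chr15:88819396-88819695 (plus).
Serp1: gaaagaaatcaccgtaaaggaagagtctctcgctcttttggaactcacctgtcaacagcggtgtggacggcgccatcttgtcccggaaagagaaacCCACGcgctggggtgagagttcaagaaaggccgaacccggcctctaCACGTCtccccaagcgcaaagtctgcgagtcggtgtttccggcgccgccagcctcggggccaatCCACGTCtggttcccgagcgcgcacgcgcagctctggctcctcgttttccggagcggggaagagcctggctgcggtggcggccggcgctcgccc
Krtcap2: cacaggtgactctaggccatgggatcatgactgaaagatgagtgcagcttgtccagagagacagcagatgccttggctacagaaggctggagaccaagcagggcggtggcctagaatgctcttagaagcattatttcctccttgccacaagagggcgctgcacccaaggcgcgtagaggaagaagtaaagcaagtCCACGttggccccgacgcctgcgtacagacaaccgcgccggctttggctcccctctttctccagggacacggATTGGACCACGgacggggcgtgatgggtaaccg
Srpr: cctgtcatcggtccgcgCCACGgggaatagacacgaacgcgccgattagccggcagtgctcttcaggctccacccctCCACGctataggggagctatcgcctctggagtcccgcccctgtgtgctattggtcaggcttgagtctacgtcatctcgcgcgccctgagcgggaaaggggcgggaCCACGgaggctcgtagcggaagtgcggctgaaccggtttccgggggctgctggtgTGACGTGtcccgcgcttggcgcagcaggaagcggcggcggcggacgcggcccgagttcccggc
Creld2: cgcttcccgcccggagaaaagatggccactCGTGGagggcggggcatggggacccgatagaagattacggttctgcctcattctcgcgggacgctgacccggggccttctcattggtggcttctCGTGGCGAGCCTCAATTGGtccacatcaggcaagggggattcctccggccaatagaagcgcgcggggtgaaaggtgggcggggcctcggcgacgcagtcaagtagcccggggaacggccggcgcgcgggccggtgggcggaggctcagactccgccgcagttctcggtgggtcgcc

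In Serp1 the matches of GACGTG begin 108 and 43 bases before the start, and the nearer one overlaps a CCACG. In Krtcap2 the second element lies 17 to 27 bases after the start, and in Srpr TGACGTG lies 13 to 7 bases before it. In Creld2 the classical element begins 126 bases before the start. A match says only that these letters are in the window, and binding was not measured.

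The study used PPTx to make beta cells replicate, and its single-cell libraries were made to bring out the expression of replicating beta cells. In beta-like cells the summed level of the ER entry genes was higher after PPTx. The sum was not tested, and no single member passed the test over all genes in the main fit. The 4 PPTx sums, 20633 to 22192, all lay above the 4 control sums, 15045 to 18355, with means of 21187 ± 709 and 16774 ± 1653 (SD, n = 4 each). Of the 30 members tested with edgeR, 26 had a positive log2 fold change (29 under the scaling without TMM factors, which put the median of all genes at 0.13), and the median was 0.37, against -0.01 over the 5925 genes tested. None was called in either direction (0.287% of all genes were, 10 higher and 7 lower). At an unadjusted p under 0.05, 16 of the 30 were higher and 0 lower, against 5.16% of all genes that were higher, and DESeq2 also called 0. Levels in all 4 PPTx samples exceeded those in all 4 control samples for 10 of the 30 members, against 2.55% of all genes tested. In CPM of all UMIs, this held for 15 members and 4.93% of all genes. The members, like the other gene lists, were chosen with earlier results of these data known. These shares therefore describe the members and are no independent support. Without control replicate 1, or without the cells that Scrublet marked, the median of the members was 0.34 and 0.35, and 0 were called in each.

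By role, the sums of TRAP, oligosaccharyltransferase, signal peptidase and the channel genes were higher in every PPTx sample than in every control sample. The TRAP genes summed to 2686, 2874, 3469 and 3653 in control and to 4324, 4322, 4117 and 4582 after PPTx. Oligosaccharyltransferase summed to 3746, 4229, 5103 and 5161 in control, and to 6145, 6195, 6026 and 6112 after PPTx. For signal peptidase, values ran from 2643 to 3349 in control and from 3450 to 4038 after PPTx, and for the channel genes from 4425 to 4651 and from 4939 to 5729. Signal recognition overlapped, at 1325 to 1783 and 1618 to 1907. Control replicates 1 and 2 were below control replicates 3 and 4 in the sum of all members and in each of these sums but that of the channel genes.

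**Figure D3:**
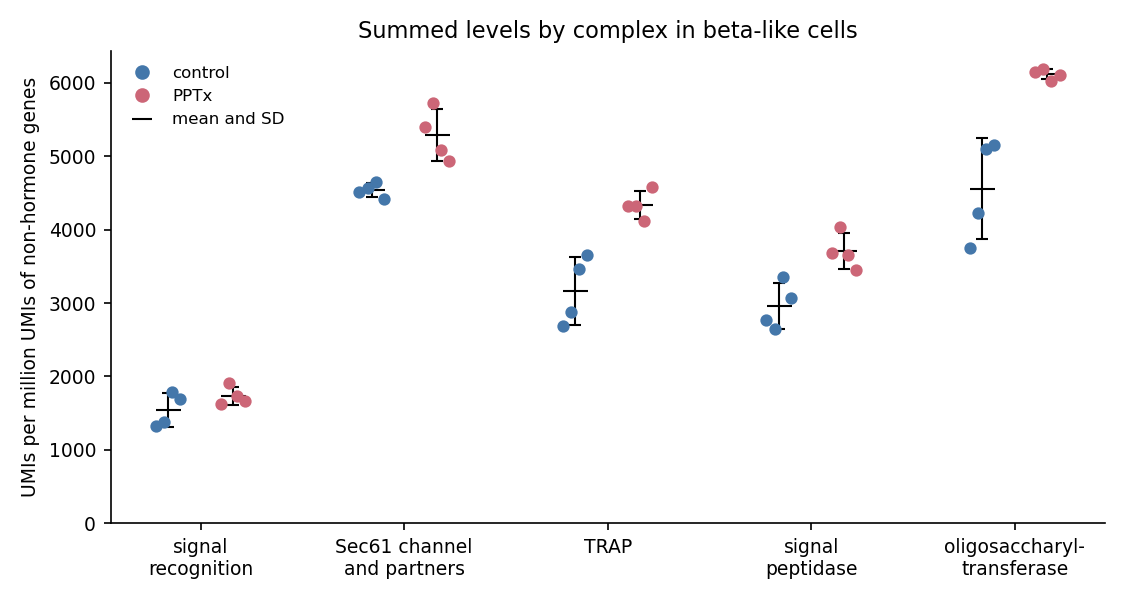
Summed levels of the genes of each complex in beta-like cells (x axis, the 5 groups by role), in UMIs per 1000000 UMIs of non-hormone genes (y axis from 0). Each point is a sample, blue for control and red for PPTx, with mean and SD (n = 4 each). The groups do not overlap for any complex but signal recognition.

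The 5 members with the lowest p were Ssr4, Rpn2, Dad1, Rpn1 and Spcs1. Ssr4, a TRAP subunit, was at 1349, 1305, 1598 and 1971 in control and 2231, 2068, 2107 and 2597 after PPTx, with no overlap. Its log2 fold change was 0.55 ± 0.16 (SE; adjusted p = 0.183, edgeR). Rpn2 was at 687, 743, 1006 and 923 in control and 1048, 1241, 1188 and 1308 after PPTx, a change of 0.52 ± 0.16 (adjusted p = 0.202). Dad1 was at 626, 787, 825 and 1007 against 1226, 1059, 1092 and 1169, and Rpn1 at 410, 578, 609 and 579 against 788, 861, 726 and 672. Neither gene overlapped between the groups. Their changes were 0.50 ± 0.16 and 0.49 ± 0.16 (adjusted p = 0.245 for both). Spcs1 did overlap, at 451 to 618 in control and 575 to 1005 after PPTx, with a change of 0.53 ± 0.17 (adjusted p = 0.261).

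The other members without overlap were Srp19 (93.6 to 130 in control and 139 to 171 after PPTx), Srprb (157 to 166 and 178 to 255), Sec61a1 (602 to 792 and 798 to 928), Serp1 (1180 to 1294 and 1438 to 1616), Sec11c (633 to 750 and 851 to 974) and Ddost (675 to 795 and 844 to 1017). Srp19 encodes a protein needed to assemble SRP, and Srprb the subunit that anchors its receptor. Their log2 fold changes were between 0.34 ± 0.14 (Serp1) and 0.57 ± 0.20 (Srp19), at adjusted p from 0.299 to 0.575. The 4 members with a negative value were Sec62, Sec63, Srp68 and Srp72, between -0.12 ± 0.16 and -0.03 ± 0.22, none of which passed. Srp14, Srpr and Stt3b were close to 0 as well, at 0.06 ± 0.16, 0.09 ± 0.21 and 0.02 ± 0.20. The remaining members (Srp9, Sec61b, Tram1, Ssr1, Ssr2, Ssr3, Spcs2, Spcs3, Sec11a, Ostc, Krtcap2 and Stt3a) had values from 0.22 ± 0.14 (Spcs2) to 0.54 ± 0.22 (Srp9).

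Of the 19 chaperone and unfolded protein response genes, 18 were tested and 3 were higher in beta-like cells after PPTx at an adjusted p under 0.05, as were 0.169% of all genes. These were Sdf2l1 at 1.06 ± 0.19 (adjusted p = 0.0117), Creld2 at 1.05 ± 0.20 (adjusted p = 0.0187) and Pdia6 at 0.68 ± 0.15 (adjusted p = 0.0369), all coding for ER-resident folding factors, and the median of the list was 0.46. The calls were lost in some fits with a sample left out. None of the 3 passed without control replicate 1, control replicate 2 or PPTx replicate 1, and only Sdf2l1 did without control replicate 4. In these fits the calls over all genes were 2, 2, 1 and 9, against 17 in the main fit. Pdia6 was also lost without PPTx replicate 2, 3 or 4. The changes stayed between 0.64 and 1.25 over the fits with a sample left out. DESeq2 called 5 of 16 with an adjusted p, Hspa5 and Hsp90b1 being the further genes, and the fit with the replicate number as a block called 6. Of the 62 other import and glycosylation genes, 40 were tested and 0 passed with edgeR, nor did any of the 18 with an adjusted p from DESeq2, with a median of 0.21, and 4 were higher at an unadjusted p under 0.05.

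Other measures were compared between the groups without a test. Of the shares and marker lists given here, only the shares of PP-like and alpha-like cells did not overlap between the groups. PP-like cells made up 3.08 to 8.82% of the kept cells in control and 10.8 to 15.6% after PPTx, and alpha-like cells 9.23 to 27.8% and 0.633 to 5.93%. Insulin took 58.0 to 63.0% of the UMIs of beta-like cells in control and 50.9 to 60.1% after PPTx. Of the marker lists in beta-like cells, the 7 acinar genes summed to 3.45 to 15.0 CPM of all UMIs in control and 5.13 to 124 after PPTx, with Amy2a2 at 0. The 4 stellate genes were at 0.0 to 21.8 and 1.03 to 228, the 4 ductal genes at 2.12 to 57.4 and 10.3 to 130 with Cftr at 0, and the 4 immune genes at 15.0 to 58.2 and 14.9 to 131. The 4 endothelial genes did not exceed 9.97, with Pecam1 and Cdh5 at 0. Beta-like cells with at least 2 UMIs of 10 replication markers were 1.28 to 3.33% of beta-like cells in control and 2.19 to 7.69% after PPTx. The summed level did not overlap between the groups without any replication UMI in the cell (control at most 18490, PPTx at least 20595), in the deeper cells of each sample (19408 and 20929) or in the shallower cells (16704 and 18085). The part of the marker genes of other cell types in these values was not tested.

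In PP-like cells no such difference was seen. The sums overlapped, with means of 14837 ± 1030 (SD, n = 3) in control and 13962 ± 966 (SD, n = 4) after PPTx. Of 20 members tested, 0 were called, as were 0.0% of the 641 genes tested, and DESeq2 called 0 members too. One of the 20 was under an unadjusted p of 0.05, as were 6.08% of all genes. It was Spcs2, at -0.66 ± 0.30 (SE; adjusted p = 0.705, edgeR). The median log2 fold change was -0.10, with 8 members positive and 12 negative. Srp72 (-0.63 ± 0.35), Spcs1 (0.54 ± 0.35), Sec11c (-0.47 ± 0.32) and Krtcap2 (-0.40 ± 0.29) followed by p. These sums held 8 to 44 cells, against 55 to 237 in beta-like cells.

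The difference itself, the PPTx effect in PP-like minus that in beta-like cells, was tested in a single model. Of 30 members 0 passed, and 0.0% of the 2868 genes tested did, with the lowest adjusted p among members at 0.677, and DESeq2 also called 0 members. At an unadjusted p under 0.05 there were 5 members, all negative, of 191 genes in all. They were Spcs2 (-0.82 ± 0.28), Ssr3 (-0.72 ± 0.31), Sec11c (-0.82 ± 0.36), Srp9 (-0.94 ± 0.47) and Krtcap2 (-0.59 ± 0.30). The fitted difference was below 0 for 28 of the 30 members, with a median of -0.35, against 0.05 over all genes. A different response of the 2 classes was thus not shown for any single member. In alpha-like cells the sums were 7668 to 10239 in control and 11794 to 12067 after PPTx. The PPTx samples held 1 to 8 alpha-like cells each, and no test was made.

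**Figure D4:**
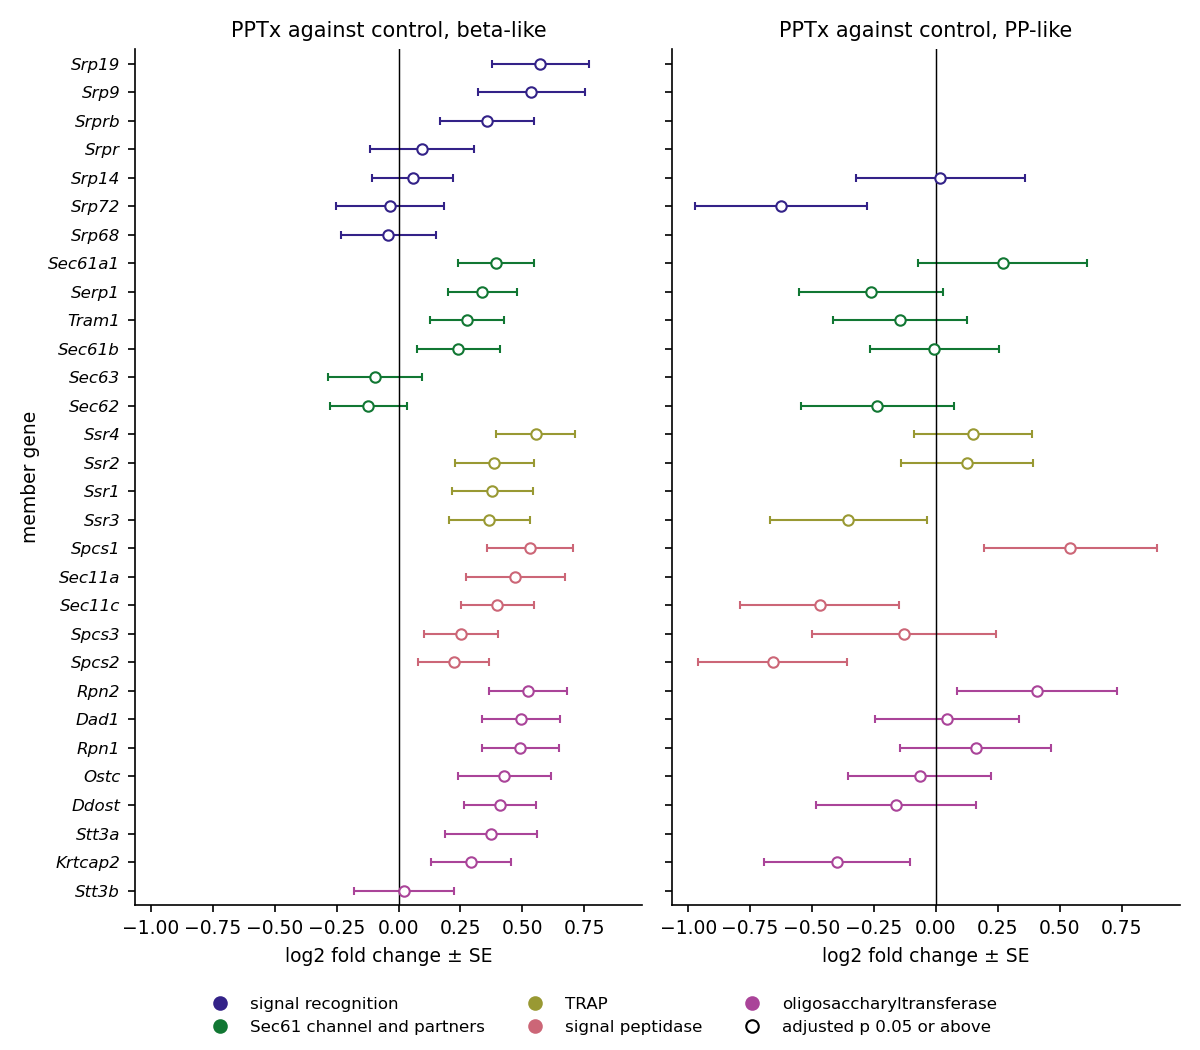
Log2 fold change ± SE (x axis) of PPTx against control for each tested member (y axis), in beta-like cells on the left (30 members) and PP-like cells on the right (20 members), from edgeR. Open points have an adjusted p of 0.05 or above, as all points here do. In beta-like cells 26 of 30 points lie to the right of 0, and in PP-like cells 8 of 20.

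Since dividing beta cells were the subject of the study, beta-like cells with at least 2 UMIs of the 10 replication markers were compared with those without any, within the 6 samples that had at least 3 of the former. There were 41 such cells in all samples, against 888 without. The summed level was 14419 and 16290 in the replicating cells of control replicates 3 and 4, and 18490 and 18088 in the others. After PPTx it was 18585, 16862, 21040 and 20587 in replicating cells, and 21456, 22568, 20595 and 20850 in the others. It was lower in 5 of 6 samples, at a mean ratio of 0.884 ± 0.109 (SD, n = 6), and higher in PPTx replicate 3. Insulin took 53.2% of the UMIs of replicating cells and 58.6% of those of the others. On the scale of all UMIs the smaller insulin share of replicating cells raises the ratio, so that little or no difference may remain. The ratio on that scale was not computed. With edgeR, 2 of 30 members were lower and 0 higher, where 1.82% of all 2581 genes were lower. These were Tram1, at -0.77 ± 0.23 (SE; adjusted p = 0.0224), and Serp1, at -0.68 ± 0.22 (adjusted p = 0.0431). Srp72, Sec61a1 and Dad1 had the next lowest p, at -0.72 ± 0.30, -0.55 ± 0.23 and -0.47 ± 0.23 (adjusted p from 0.144 to 0.239). The median was -0.30 over the members and -0.11 over all genes. Without PPTx replicate 1 or without PPTx replicate 2, neither gene was called, and Tram1 was not called without control replicate 3 nor Serp1 without PPTx replicate 3. Neither was called without the TMM factors or with cells thinned to 2000 UMIs. Serp1 was also not called with DESeq2, with all deposited cells or without Scrublet doublets.

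Depth was looked at in the same way. Beta-like cells above the median UMIs of their sample had a higher summed level than those below in 7 of 8 samples, at a ratio of 1.11 ± 0.0973 (SD, n = 8), with control replicate 1 the exception. Ssr3 and Spcs1 were higher in deeper cells, at 0.41 ± 0.10 and 0.39 ± 0.10 (SE; adjusted p = 0.0245 and 0.0396, edgeR), 2 of 30 members where 0.482% of 2902 genes were higher. The median was 0.17, against -0.01 over all genes. Both calls were lost without control replicate 3 and without PPTx replicate 1, 2 or 3, and that of Spcs1 also without control replicate 4. Split by the insulin share of UMIs instead, cells with the higher share had the higher sum in 8 of 8 samples, at a ratio of 1.08 ± 0.0523 (SD, n = 8), with a median of 5907 UMIs a cell against 6162 in the others. Insulin took 63.1% of the UMIs in the former and 53.4% in the others, and hormone UMIs are left out of the level. With these insulin shares the direction is the reverse on the scale of all UMIs, on which the sums of single samples were not computed. This last split is given as a description without a test.

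**Figure D5:**
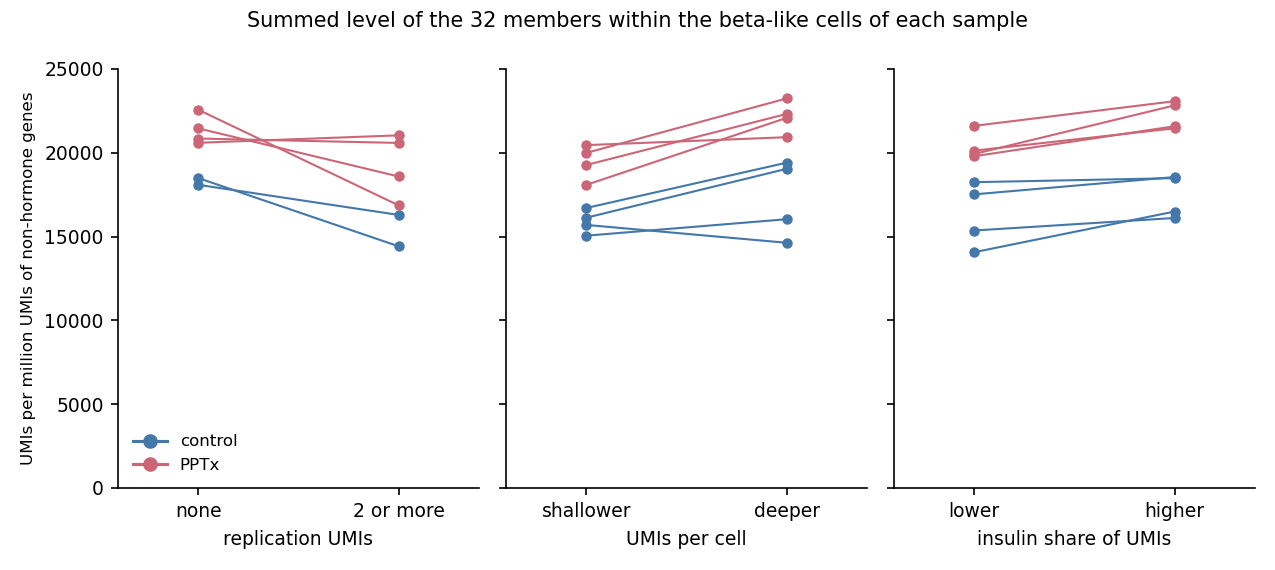
Summed level of the 32 members (y axis, UMIs per 1000000 UMIs of non-hormone genes, from 0) in 2 parts of the beta-like cells of each sample, joined by a line, blue for control and red for PPTx. The panels split cells by replication UMIs (6 samples), by UMIs per cell and by the insulin share of UMIs (8 samples each). Lines fall in the first panel in 5 of 6 samples, and rise in 7 of 8 and 8 of 8 samples in the others.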

How the data were processed

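Per the methods, the authors aligned to mm10 and obtained UMIs with Cell Ranger. The deposited tables hold raw UMI counts, 1 row a cell and 1 column a gene. The methods name the ddSEQ system with a SureCell kit, whereas the labels name a Chromium kit. The methods name a filtering step in Cell Ranger. The limit by which cells were chosen before deposit is not given in the sources used here. The lowest total of a kept cell was 2005 UMIs. The 32 members and the gene lists were chosen with earlier results of these data known. As in the methods, a cell needed between 100 and 3000 genes and between 100 and 20000 UMIs. Cells shared 1 barcode between samples and were named by sample and barcode.

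Counts were summed per sample and class (at least 5 cells, or 3 for replicating cells) and tested with the quasi-likelihood test of edgeR 4.0.16 after filterByExpr and TMM (Benjamini-Hochberg adjustment over all genes, threshold 0.05), which was tested on simulated counts. Comparisons between classes or parts of a sample had the sample as a block. The tests are two-sided. Named were all called members and, where 5 or fewer were called, the 5 with the lowest p, and of the other lists the called genes, at most 4 a direction. R 4.3.3, DESeq2 1.42.0, Python 3.11.15 and scanpy 1.11.5 (Scrublet) were used. Alternatives were another test, filter, scaling, hormone share (50% or 80%), cell filter, thinning to 2000 UMIs, and leaving out each sample. The p-values of PPTx against control measure the spread between samples, each of a single mouse or a few pooled mice. Those of fits with the sample as a block measure the spread of the differences within samples.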

Additional observations from a re-analysis of the deposited data

Results flagged for a closer look

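Among the summed and single levels in beta-like cells, 76 groups of 4 samples were screened for a sample far from the other 3, and 4 stood out. Chance alone gives about 1 in 20, and no test of the pattern was made. Srprb was at 255 in PPTx replicate 2 and at 178 to 191 in the other PPTx samples. Tram1 was at 1010 in control replicate 3, against 759 to 800 in the other controls. In control replicate 1, Ssr3 was at 518 (43 UMIs) against 607 to 622, and Rpn1 at 410 (34 UMIs) against 578 to 609.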

How the results depend on the processing

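In beta-like cells after PPTx, 0 members were called under 20 of 21 alternatives. The exception was the fit with the replicate number as a block, which called 1 member, Ssr4. The numbers were not shown to pair the samples: the correlations of same-numbered samples over 5925 genes were 0.0476, 0.037, 0.0916 and 0.142, and not every sample correlated best with its own number. The block moved the calls over all genes from 17 to 38, and other settings gave 1 (without PPTx replicate 1) to 92 (no filter). The median of the members stayed between 0.26 and 0.50. Fits on cells without a replication transcript, or on the deeper or shallower cells alone, were added after seeing the data and called 0 members. In PP-like cells, and for the difference between the classes, all 18 alternatives called 0, the block included in the former, while their medians ran from -0.15 to 0.05 and from -0.47 to -0.19. Between PP-like and beta-like cells 13 to 24 members were called (15 to 21 with a sample left out), and between alpha-like and beta-like cells 14 to 25 (19 to 23).

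The calls in replicating and in deeper cells depended on the setting. In replicating cells the number called was 10 with no filter, 1 with DESeq2, with all deposited cells or without Scrublet doublets, 0 without TMM or with thinned cells, and 0 to 2 with a sample left out. The fit with no filter called 548 of all 13996 genes there. Its median was -0.87 over the members and -0.70 over all genes. In deeper cells the number called was 4 with no filter (119 of all 14129 genes), 0 without TMM, 1 with all deposited cells or without Scrublet doublets, and 0 to 2 with a sample left out. The cause was not tested. In CPM of all UMIs, the log2 ratio of the summed level was 0.48 for PPTx over control in beta-like cells (0.34 over non-hormone UMIs) and -0.50 for alpha-like over beta-like cells (-0.84). Of 1411 single-gene values under alternatives, 64 lost and 7 gained a call and 0 turned direction while called. The comparison of delta-like cells was not run, since no sample had 5 of them. At this depth Sec61g and Tusc3 had too few UMIs to pass the filter on low counts in any comparison, and Srp19, Srpr, Srprb and Stt3b in those between classes, so that they were tested only with the filter off or under other alternatives.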
